A study of Mus musculus with 18 samples.

Results

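Tmem176a, Tmem176b, Ccl20, Rora, Ahr and Stat3 are 6 genes linked by name to the T helper 17 programme, and they are described here across every group of a series of mouse CD4+ T cells and the cells that stimulated them. They are 6 of the 15697 named genes in the deposited table, all 6 were found there by name, and they were chosen on measured values, namely their levels in the 10 and 0.01 µM libraries. Differences that involve those libraries are therefore given as a description with no test. The T cells carried the transgenic 5CC7 receptor and came from spleen and lymph node. Stimulation lasted 4 days and used the peptide pPCC, presented by a line of fibroblasts called P13.9. The groups are T cells at pPCC doses of 0.01, 0.1, 1.0 and 10 µM, naive CD4+ T cells, and the presenting P13.9 line by itself, with 3 libraries in each. Whether replicate libraries derive from different mice or cultures is not in the labels, so the p-values measure the spread between these libraries, which may be technical.

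T helper 17 cells form when cytokine receptors activate STAT3, which acts with the retinoic acid receptor-related orphan receptors, one of them the product of Rora. AHR, a transcription factor switched on by small aromatic ligands, promotes interleukin 22 production in the same cells. Ccl20 encodes the chemokine that attracts cells bearing CCR6, and it is made by T helper 17 cells and by epithelial and stromal cells under NF-kappa-B control. Tmem176a and Tmem176b encode paired membrane proteins with 4 transmembrane stretches that have been described in dendritic cells and in T helper 17 cells.

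Values are normalized read counts, and whole reads could be recovered from them. Reads in named genes numbered 156941 to 732987 in the activated libraries, 27784 to 97752 in the naive libraries and 201620 to 351978 in P13.9. One read was worth 0.167 to 0.872 normalized units in activated cells, 2.17 to 6.55 in naive cells and 0.442 to 0.767 in P13.9, so low naive values rest on few reads. These totals lie far below the 4000000 reads per library that the labels state, for a reason not given in the sources used here, and the floors, counting intervals and count tests below take each recovered unit as 1 read. Replicates correlated at 0.90 to 0.972 over genes in activated cells, 0.601 to 0.765 in naive cells and 0.926 to 0.947 in P13.9. The label was checked with marker genes. The summed level of 8 T cell markers was lowest among the doses at 0.01 µM, at 150 to 172. It was 251 to 290 at 0.1 µM, 247 to 292 at 1.0 µM and 276 to 287 at 10 µM. Naive cells had 197 to 271 and P13.9 had 2.21 to 6.02. Cd8a and Cd8b1 were at 0 in naive cells, where depth was lowest. Cd8b1 had 1, 9, 8 and 10 reads from 0.01 to 10 µM, and Cd8a had 2 reads at 1.0 µM and 5 at 10 µM. Library numbers in the labels fall into 2 ranges. One holds the P13.9, naive, 0.01 and 1.0 µM libraries and the other holds the 0.1 and 10 µM libraries.

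Tmem176a and Tmem176b lie head to head on chromosome 6 (GRCm38.p6 annotation from RefSeq, Tmem176a at chr6:48841483-48845364 and Tmem176b at chr6:48833811-48845948). Their spans overlap on opposite strands, and the strand setting of the counting is not given in the sources used here, so reads from the shared part cannot be told apart. The stretch between the nearest annotated starts is 108 bases long and is shown because both genes start at its ends. It is written on the plus strand from chr6:48841375-48841482, and capitals mark the single match, on the minus strand, to an NF-kappa-B-like pattern (GGG, any 5 bases, then CC).
Tmem176a and Tmem176b start region: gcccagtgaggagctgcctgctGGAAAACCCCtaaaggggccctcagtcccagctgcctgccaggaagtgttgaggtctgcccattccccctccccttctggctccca

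Ccl20 lies on chromosome 1 at chr1:83116766-83119167. The 250 bases before its start are shown because Ccl20 was the member read mainly at 1 dose. They are written on the plus strand from chr1:83116516-83116765.
Ccl20 upstream region: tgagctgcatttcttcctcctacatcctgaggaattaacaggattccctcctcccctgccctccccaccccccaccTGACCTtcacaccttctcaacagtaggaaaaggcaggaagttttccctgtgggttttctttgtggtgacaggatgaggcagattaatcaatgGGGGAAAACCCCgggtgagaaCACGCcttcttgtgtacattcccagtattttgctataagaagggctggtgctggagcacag
Capitals mark, from left to right, 1 match to the ROR half-site AGGTCA on the minus strand, 3 overlapping matches to the NF-kappa-B-like pattern, and 1 match to the AHR core GCGTG on the minus strand. All 4 letter patterns were searched on both strands. Among 32851 windows of 250 bases before annotated starts, 14.0% held AGGTCA, 45.8% held the NF-kappa-B-like pattern, 28.2% held GCGTG and 7.02% held the STAT pattern TTCNNNGAA. Neither printed stretch held TTCNNNGAA. These matches describe letters and not bound sites.

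Rora lies on chromosome 9 (chr9:68653404-69388246), Stat3 on chromosome 11 (chr11:100886806-100939594) and Ahr on chromosome 12 (chr12:35497979-35534989), in the same annotation.

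Tmem176a was highest in the presenting cells. Its normalized values were 6.55, 11.7 and 8.66 in naive cells, 15.7, 21.8 and 29.4 at 0.01 µM, 7.93, 6.97 and 8.70 at 0.1 µM, 10.50, 4.01 and 5.53 at 1.0 µM, 2.82, 2.06 and 1.72 at 10 µM, and 46.0, 59.5 and 52.1 in P13.9. The 0.01 µM libraries stood above all other T cell libraries, and the 10 µM libraries below all of them. Naive, 0.1 and 1.0 µM libraries overlapped, and the naive values came from 8 reads in all. The means were 8.98 ± 2.59 in naive cells, 22.3 ± 6.82, 7.87 ± 0.864, 6.68 ± 3.39 and 2.20 ± 0.565 from 0.01 to 10 µM, and 52.6 ± 6.75 in P13.9 (SD, n = 3 each).

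Tmem176b followed nearly the same order, with a lower naive level. It had 0, 0 and 2.17 units in naive cells, 17.4, 19.2 and 15.9 at 0.01 µM, 3.35, 8.72 and 4.97 at 0.1 µM, 4.72, 3.68 and 3.38 at 1.0 µM, 2.26, 4.45 and 2.30 at 10 µM, and 50.6, 44.8 and 53.9 in P13.9. Only 1 naive read was counted, against 33 reads at 0.1 µM and 31 at 1.0 µM. The 0.01 µM libraries did not overlap with the other T cell libraries, while the 0.1, 1.0 and 10 µM libraries overlapped with one another. The log2 ratio of Tmem176a over Tmem176b values, each with 1 added, was 0.29 ± 0.50, 0.48 ± 0.69, 0.56 ± 0.45 and -0.29 ± 0.53 from 0.01 to 10 µM, and 0.07 ± 0.29 in P13.9 (SD, n = 3 each). In naive cells it was 2.73 ± 1.04 (SD, n = 3).

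Among T cell libraries, Ccl20 was read mainly at the lowest dose. Its values at 0.01 µM were 6.03, 7.19 and 8.77, from 36, 31 and 26 reads, and those in P13.9 were 3.83, 3.34 and 4.86, from 21 reads in all. The 3 naive libraries had no read, which allows a mean of up to 3.45 normalized units at a floor of 3 reads over the group. The 0.1, 1.0 and 10 µM groups held 1, 3 and 1 reads. All 0.01 µM libraries were above all P13.9 libraries, and these in turn were above all remaining libraries. Of 820 other genes with no naive read and a P13.9 mean of at least 3, 2.56% had all 0.01 µM libraries above all P13.9 libraries. Ccl20 was chosen with its 0.01 µM level known, so nothing further is read from this share.

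**Figure D1:**
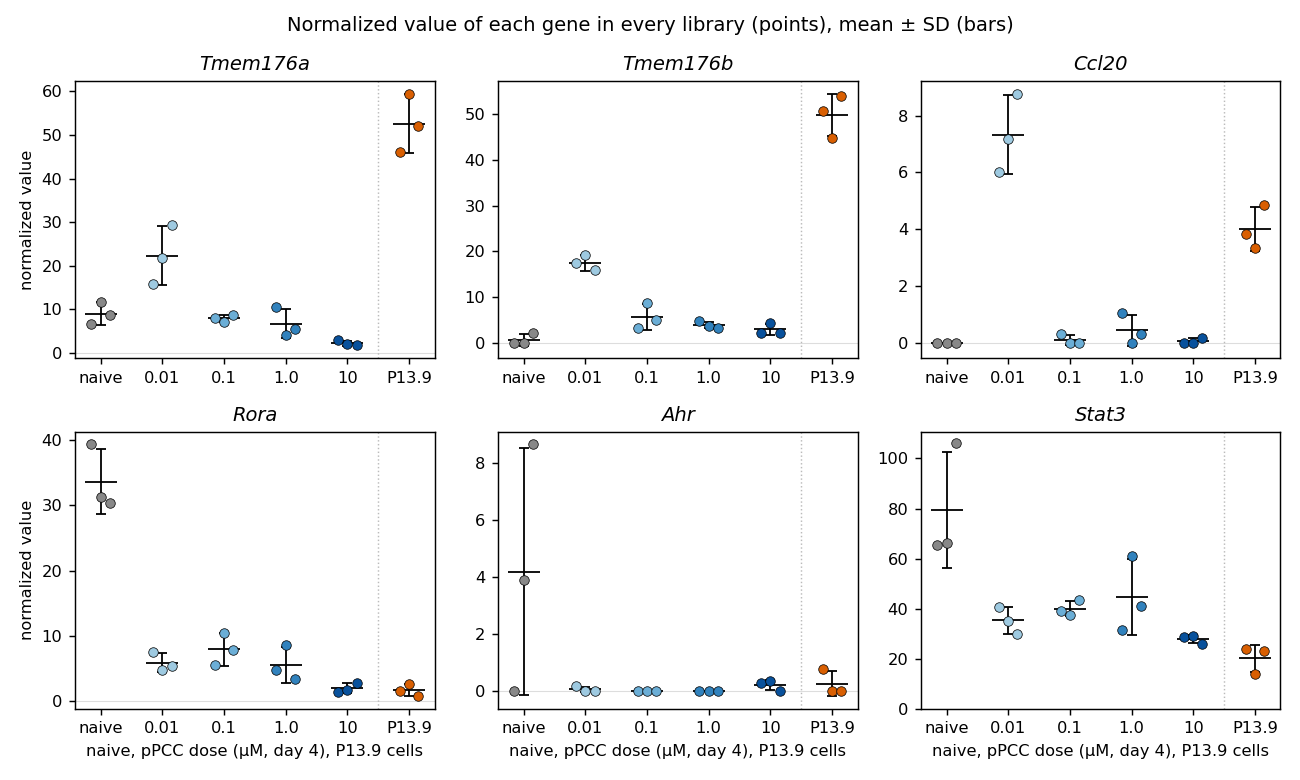
Normalized value of each of the 6 genes (vertical axis, linear, normalized read count) in every library of the naive group, the 4 pPCC doses in µM at day 4, and P13.9 cells. Points are single libraries and bars are means ± SD (n = 3); Tmem176a and Tmem176b averaged 52.6 and 49.8 in P13.9 cells, Ccl20 averaged 7.33 at 0.01 µM, and Rora and Stat3 were highest in naive cells.

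Rora and Stat3 ran the other way, with their highest levels in naive cells. Rora had 39.3, 31.2 and 30.3 units in naive cells, 7.54, 4.87 and 5.40 at 0.01 µM, 5.49, 10.5 and 7.87 at 0.1 µM, 4.72, 8.69 and 3.38 at 1.0 µM, 1.41, 1.71 and 2.87 at 10 µM, and 1.53, 2.67 and 0.884 in P13.9. The naive libraries stood above all others, the 10 µM libraries stood below the other 3 doses, and the 10 µM and P13.9 libraries overlapped. The naive values rest on 28 reads.

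Stat3 had 65.5, 66.4 and 106 units in naive cells, 40.9, 35.2 and 30 at 0.01 µM, 39.0, 37.5 and 43.5 at 0.1 µM, 31.5, 61.2 and 40.9 at 1.0 µM, 28.5, 29.1 and 26.1 at 10 µM, and 23.8, 14.0 and 23.0 in P13.9. The 3 lower doses overlapped, and every 10 µM library was below every library of those doses and above every P13.9 library. Stat3 was the one member with at least 76 reads in every group.

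Ahr was close to the detection limit everywhere. The naive libraries had 0, 1 and 4 reads, or 0, 3.90 and 8.66 normalized units. The 0.01 µM group had 1 read, the 0.1 and 1.0 µM groups none, the 10 µM group 2 and P13.9 1. Groups with no read allow means of up to 0.438 units at 0.1 µM and 0.368 at 1.0 µM. With 5 naive reads in all, no fold is given. The test required 3 libraries with a value of 5 or more, which Ahr did not reach.

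Of the 6 members, 5 passed that filter. Ccl20 passed only through the 0.01 µM libraries that helped choose it, so its values are given as reads with no test. In the fit of T cell libraries Tmem176b also passed only with the 0.01 µM libraries. Its only other value of 5 or more there was 8.72 in the 0.1 µM library B. Its changes among T cells are therefore a description with no test. In the fit of all 18 libraries Tmem176b reached 5 only in the P13.9 libraries, where it was high, the 0.01 µM libraries and that 0.1 µM library. Its comparisons with P13.9 are therefore a description too. The members tested are Tmem176a, Rora and Stat3. The contrasts used the 0.1 and 1.0 µM, naive and P13.9 libraries, which did not enter the choice of members. The spread was estimated over all libraries of each fit, those at 0.01 and 10 µM included. Calls are at an adjusted p below 0.05 with limma on log2(value + 1) and Benjamini-Hochberg adjustment over all genes.

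Between the middle doses none of Tmem176a, Rora and Stat3 was called. Across all genes, 0% of 7263 were called between 1.0 and 0.1 µM (110 passed 0.05 before adjustment). The counts by edgeR and DESeq2 on recovered reads were also 0. The log2 difference, 1.0 over 0.1 µM, was -0.29 for Tmem176a with a 95% interval of -1.08 to 0.50, and -0.37 for Tmem176b with an interval of -1.36 to 0.62. It was -0.48 for Rora (interval -1.27 to 0.31) and 0.10 for Stat3 (-0.41 to 0.62). Ccl20 had 3 reads at 1.0 µM and 1 at 0.1 µM. These intervals leave room for differences of 2-fold in Tmem176a, Tmem176b and Rora, and 1.0 and 0.1 µM lie in different ranges of label numbers. Stat3 changed sign to -0.15 without the 1.0 µM library B.

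Against naive cells, Rora was lower in the pooled 0.1 and 1.0 µM libraries in all 3 tools. Tmem176b, described here with no test, was higher, and less so once a P13.9 share was taken off. Of all 7263 genes, 61.2% were called in this comparison, so a called member is common among genes here. Tmem176b stood 1.92 ± 0.40 log2 units higher (limma, SE), with all 6 activated libraries above all 3 naive ones. edgeR put the change at 2.51 and DESeq2 at 2.30. The 0.1 µM reads per unit of depth were 4.20 times the naive level, with a counting interval of 0.703 to 171, and the 1.0 µM reads 3.31 times, with an interval of 0.552 to 135. Both intervals include 1. The level that P13.9 transcripts alone would account for is estimated below, under an assumption that was not tested. It was 3.003 or 3.70 units of Tmem176b at 0.1 µM against 5.68 observed, and 1.88 or 2.61 at 1.0 µM against 3.93 observed. With these products subtracted and the same genes kept, an alternative chosen after seeing the data, the limma change was smaller. It was 1.05 by 3 fibroblast genes and 0.70 by 74 genes with no naive read.

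Rora fell by 2.22 ± 0.32 log2 units (adjusted p = 2.59e-05, limma, SE). edgeR gave -1.66 (adjusted p = 0.000669) and DESeq2 -1.74 (adjusted p = 7.99e-05). With the 1.0 µM libraries alone, which share a label range with the naive libraries, the change was -2.46 (adjusted p = 5.16e-05, limma). Stat3 fell by 0.89 ± 0.21 (adjusted p = 0.0019, limma), but edgeR gave -0.33 (adjusted p = 0.248) and DESeq2 -0.40 (adjusted p = 0.176), so that call holds in limma only. The median gene stood at -0.01 log2 in limma, 0.35 in edgeR and 0.29 in DESeq2 in this comparison. Tmem176a stood at -0.29 ± 0.32 (adjusted p = 0.454, limma) and changed sign to 0.28 in edgeR and 0.23 in DESeq2. Ccl20 had 4 reads in the 6 activated libraries and none in naive cells, so no fold is given.

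Other cells moved with the naive group. The summed level of 13 myeloid and dendritic markers in the table was 28.1 to 44.1 in activated cells and 170 to 214 in naive cells, with Adgre1 and Itgax at 0 in naive cells. Of 7 such markers tested, 6 fell and none rose in the pooled doses against naive cells, by limma and by edgeR. In that comparison limma called 61.2% of all genes. Only 1 marker of the list passed the filter with the activated libraries alone. The others passed only with the naive libraries, where they were high, so these falls are a description. Ngp and S100a8, granule and calcium-binding proteins of neutrophils, were among the 5 genes most like Rora over the 18 libraries, with Pearson r of 0.923 and 0.922. S100a8 averaged 27.8, 9.56, 6.26 and 3.50 units from 0.01 to 10 µM, and 483 in naive cells. The part of these cells in the Rora difference was not tested. The naive Rora level cannot be split between fewer cells of a type and less RNA per cell, which holds for every bulk value given here.

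The presenting cells carried far more of the Tmem176 pair than naive cells. In P13.9 against naive cells, where 59% of 8178 genes were called, Tmem176a rose by 2.45 ± 0.33 log2 units (adjusted p = 4.26e-06, limma). Tmem176b, described with no test, stood 5.11 ± 0.43 higher (limma, SE). Rora fell by 3.73 ± 0.38 (adjusted p = 1.48e-07) and Stat3 fell by 1.92 ± 0.26 (adjusted p = 4.25e-06). edgeR and DESeq2 called Tmem176a, Rora and Stat3 in the same directions, and put Tmem176b at 5.71 and 5.64. The median gene was at 0.16 in limma, 0.25 in edgeR and 0.31 in DESeq2. In reads per unit of depth, P13.9 stood above naive cells 43.8 times for Tmem176b (counting interval 7.80 to 1739) and 5.74 times for Tmem176a (2.87 to 13.4). Ccl20 had 21 reads in P13.9 and none in naive cells.

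Against P13.9 cells, the pooled 0.1 and 1.0 µM libraries were lower in Tmem176a and Tmem176b and higher in Rora and Stat3. Tmem176b is again described with no test. Across 8178 genes, 45.2% were called. Tmem176a fell by 2.74 ± 0.28 log2 units (adjusted p = 3.51e-07, limma) and Tmem176b fell by 3.19 ± 0.37 (adjusted p = 1.32e-06). Rora rose by 1.504 ± 0.33 (adjusted p = 0.00113) and Stat3 by 1.03 ± 0.22 (adjusted p = 0.000944). The median gene was at -0.23 in limma, 0.04 in edgeR and -0.12 in DESeq2. The calls of Tmem176a, Rora and Stat3 held in edgeR and DESeq2. They also held with 1.0 µM alone, which shares a label range with P13.9 (adjusted p from 1.45e-06 to 0.0135, limma).

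**Figure D2:**
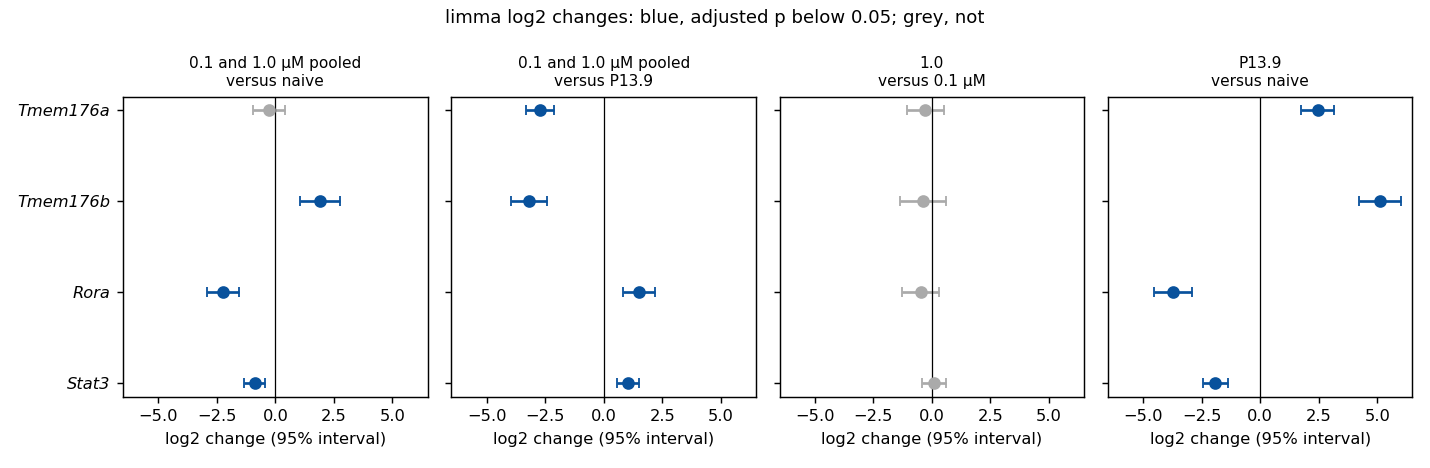
limma log2 changes of 4 genes with 95% intervals in 4 comparisons, where positive values mean higher in the first-named group. Blue points have an adjusted p below 0.05 and grey points do not. No gene is blue in 1.0 versus 0.1 µM. The Tmem176b points, such as 1.92 for the pooled doses against naive cells, are a description whatever their colour.

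Because the activated T cells had been cultured on P13.9 cells, the share of P13.9 transcripts in each library was estimated. With 3 fibroblast genes as a measure (Sparc, Col1a2 and Fn1, which encode matrix proteins), the median share was 29.4 ± 4.40% for 0.01 µM, 6.03 ± 0.922% for 0.1 µM, 3.79 ± 1.15% for 1.0 µM and 1.21 ± 0.284% for 10 µM (SD, n = 3 each). These 3 are the genes averaging 20 or more in P13.9 among 12 listed fibroblast markers, 8 of them in the table, and singly they gave 29.8% (Sparc), 33.9% (Col1a2) and 12.1% (Fn1) at 0.01 µM. Not every marker of the list was highest in P13.9. Timp1 averaged 14.5 units at 0.01 µM and 11.1 in P13.9, and Bgn averaged 9.12 in naive cells and 0.147 in P13.9. The same 3 genes gave 3.17 ± 2.80% in naive cells, which were not cultured with P13.9. With 74 genes that lacked naive reads and averaged 20 or more in P13.9, the share was 23.7 ± 3.03%, 7.43 ± 1.84%, 5.25 ± 1.97% and 2.76 ± 0.508% from 0.01 to 10 µM. By both measures the share was highest at 0.01 µM and lowest at 10 µM, the same order as the Tmem176a means.

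Multiplying the share by the P13.9 mean gives the level that P13.9 transcripts alone would account for, under an assumption. It takes P13.9 cells in coculture to express each gene as the line does by itself, which was not tested. For Tmem176a these products were 15.4 (fibroblast genes) and 12.5 (74 genes) at 0.01 µM, against an observed mean of 22.3. At 10 µM they were 0.638 and 1.45, against 2.20 observed. Every one of the 12 activated libraries was above its product by both measures, and the observed level at 0.01 µM was less than 2 times the product. Each share is a median over its genes, so other genes of the set also lie above their product. For Tmem176b the products at 0.01 µM were 14.6 and 11.8, against 17.5 observed, and 2 of 3 libraries were above the fibroblast product and 3 of 3 above the other. At 10 µM they were 0.604 and 1.38, against 3.004 observed.

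As a percent of the P13.9 mean, Tmem176a reached 42.4 ± 13%, 15% ± 1.64, 12.7 ± 6.45% and 4.19 ± 1.07% from 0.01 to 10 µM. Tmem176b reached 35.2 ± 3.41%, 11.4 ± 5.53%, 7.89 ± 1.42% and 6.03 ± 2.52% at the same doses (SD, n = 3 each). Among the 74 genes with no naive read the median at 0.01 µM was 25.1%, and the 10th to 90th percentile was 12% to 44.5%, a range that holds both members. The range was 3.14% to 19.8% at 0.1 µM, 2.55% to 20.2% at 1.0 µM and 0.749% to 14.5% at 10 µM. Both members lie within these ranges too. 

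For Ccl20 the products at 0.01 µM were 1.18 and 0.952, against 7.33 observed, and its level was 183 ± 34.3% of the P13.9 mean. Among 820 other genes with no naive read and a P13.9 mean of at least 3, the 10th to 90th percentile at 0.01 µM was 12.7% to 83.0%. At 0.1, 1.0 and 10 µM the group totals of 1 to 3 reads were too few to set against the products.

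**Figure D3:**
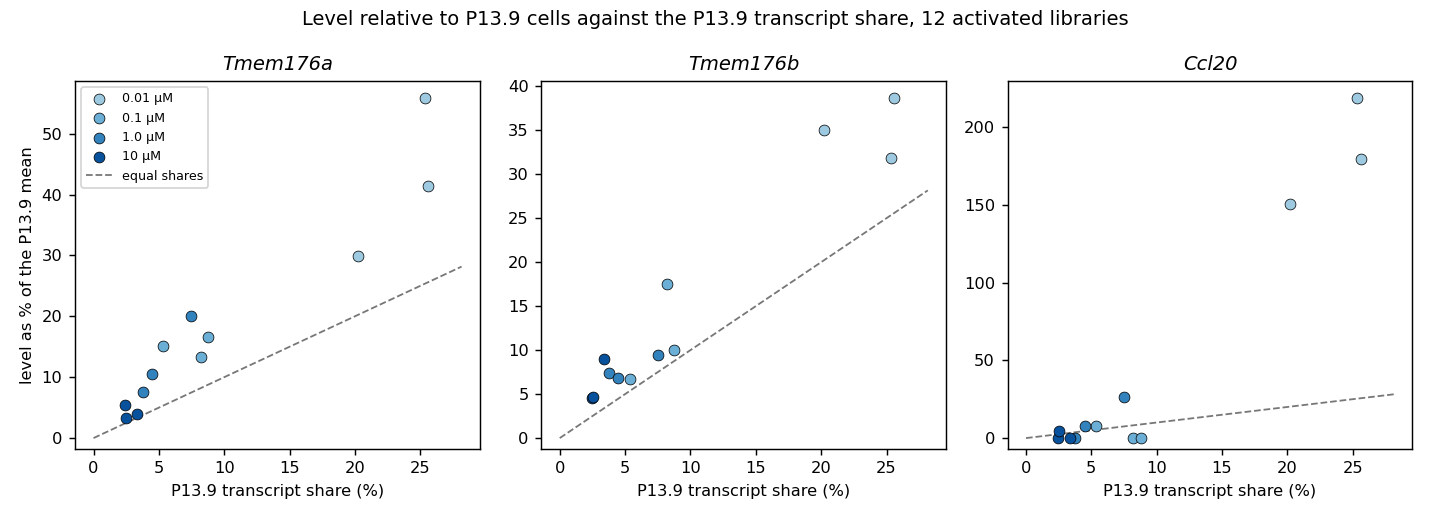
Level as a percent of the P13.9 mean (vertical axis) against the P13.9 transcript share in percent from the 74 genes with no naive read (horizontal axis), for 12 activated libraries coloured by dose. The dashed line marks equal percentages; Tmem176a and Tmem176b points lie above it, and Ccl20 at 0.01 µM averaged 183% of the P13.9 mean.

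For Rora and Stat3 the P13.9 products were small. For Rora they were at most 0.50 at any dose, and for Stat3 at most 5.95, against observed means of 5.93 and 35.4 at 0.01 µM.

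In the contrast that chose the members, 10 over 0.01 µM, the log2 changes were -2.84 for Tmem176a, -2.25 for Tmem176b, -2.96 for Ccl20, -1.22 for Rora and -0.32 for Stat3. In that contrast 8.15% of 7263 genes were called, and nothing is read from it for the members. Within the label ranges, 10 over 0.1 µM gave -1.48, -0.70, -0.04, -1.57 and -0.50 for the same 5 genes, and 1.0 over 0.01 µM gave -1.65, -1.91, -2.57, -0.13 and 0.28. Tmem176a libraries did not overlap in 10 over 0.1 µM, those of Tmem176b overlapped there, and Ccl20 had 1 read at each of these doses. With the fibroblast product subtracted and the same genes kept, the 10 over 0.01 µM value was 0.065 for Tmem176b and -1.47 for Tmem176a.

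Genes of other lists were tested in 10 over 0.01 µM, where leaving out any of the 6 libraries of these doses lowered the count of 592 called genes, to 199 without the 0.01 µM library B and to 387 without the 10 µM library C. The lists, here and below, were drawn up with earlier results of these data known. Their counts and adjusted p-values are therefore a description and no independent support. Of 11 tested T helper 17 pathway genes, 5 fell and none rose, at a median of -1.12 against -0.03 over all genes, of which 8.15% were called. They were Maf, a factor of interleukin 10 and T helper 17 programmes, at -2.29 ± 0.28 (adjusted p = 0.000176, limma), Nfkbiz, an NF-kappa-B regulator, at -2.19 ± 0.37 (adjusted p = 0.00191), Socs3, an inhibitor of STAT3 signalling, at -1.94 ± 0.46 (adjusted p = 0.0156), Hif1a, at -1.02 ± 0.25 (adjusted p = 0.022), and Runx1, a Runt-family transcription factor, at -1.12 ± 0.31 (adjusted p = 0.0382), the last named because it completes the count. edgeR called 7 lower and 1 higher. In P13.9 cells Nfkbiz averaged 11.7 units, Socs3 10.8, Hif1a 30.9, Runx1 10.2 and Maf 0.773. The 3 fibroblast genes put the P13.9 share at 1.21% for 10 µM and 29.4% for 0.01 µM, and its part in these changes was not tested. Il22 had reads at 1.0 µM alone. Il17f, Il23r and Ccr6 were not analysed here.

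Of 11 STAT3-axis genes, 2 fell, Socs3 and the kinase Jak2 (-1.45 ± 0.41, adjusted p = 0.0406, limma). Of 6 AHR-axis genes, none was called, and the AHR target Tiparp stood at -1.61 ± 0.51 (adjusted p = 0.0684). Of 6 genes of the ROR axis, a list of nuclear receptors, cofactors and clock genes tied to Rora, the clock gene Clock fell (-1.86 ± 0.40, adjusted p = 0.00956). Against naive cells, 4 of these 6 ROR-axis genes fell in the pooled 0.1 and 1.0 µM libraries and 1 rose, where 61.2% of all genes were called. Those named are Nr1d2, a repressor at ROR sites (-4.73 ± 0.31, limma), Clock (-3.51 ± 0.35), its partner Arntl (-3.45 ± 0.47) and the corepressor Ncor1 (-2.18 ± 0.20). edgeR called 5 lower and 1 higher. Nr1d2, Clock and Arntl stayed below 5 units in every activated library. They passed the filter only through the naive libraries, where they were high, so their falls and these counts are a description. In the same comparison the STAT3-axis list had 3 of 11 higher and 6 lower by limma, and 3 of each by edgeR, with the receptor gene Il10ra at 2.83 ± 0.28 (adjusted p = 5.04e-07, limma). Il10ra had no naive read, against 39 reads at 0.1 µM and 49 at 1.0 µM, so the size of its change is uncertain.

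Chemokine genes were among the 5 closest to Ccl20 over all libraries. Over the 18 libraries the genes most like Ccl20 in log2(value + 1) were Ccl7 (Pearson r = 0.915), Cxcl1 (0.883), Ccnd1 (0.869), S100a4 (0.868) and Scg5 (0.861). Within the 12 activated libraries they were mt-Cytb (0.962), Cxcl1 (0.957), Nfe2l2 (0.955), Rheb (0.955) and Anxa5 (0.953), with 1 chemokine gene among them. Of 6 tested inflammatory chemokine and NF-kappa-B target genes, 4 fell in 10 over 0.01 µM, namely the chemokine genes Cxcl2 (-5.0 ± 0.28, adjusted p = 1.0e-07, limma), Cxcl1 (-4.81 ± 0.50), Ccl2 (-4.36 ± 0.77) and Ccl7 (-4.08 ± 0.51). Nfkbia and Tnfaip3, feedback inhibitors of NF-kappa-B, were not called.

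All 4 chemokine genes exceeded their P13.9 mean at 0.01 µM, as Ccl20 did. Cxcl2 reached 817 ± 96.1% of the P13.9 mean, Cxcl1 489 ± 82.9%, Ccl2 212 ± 40.1% and Ccl7 147 ± 21.8% (SD, n = 3 each). At 10 µM they stood at 20.3 ± 3.13%, 15.4 ± 0.178%, 9.41 ± 2.39% and 6.42 ± 1.22%. Cxcl2 had 30.3 to 35.1 units in naive cells, where Ccl7 and Ccl20 had no read.

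**Figure D4:**
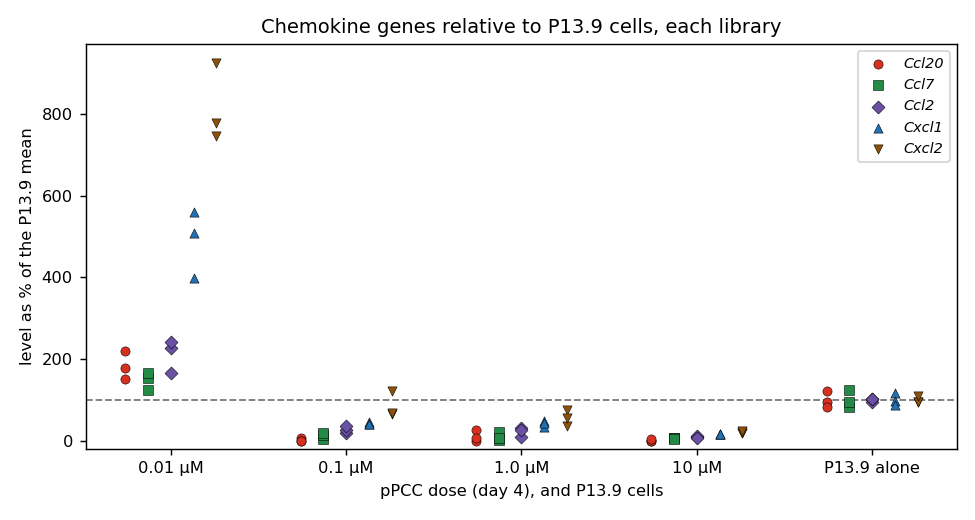
Level of Ccl20, Ccl7, Ccl2, Cxcl1 and Cxcl2 as a percent of each gene's P13.9 mean (vertical axis, linear) in the 4 pPCC doses and in P13.9 cells; each point is 1 library and the dashed line is 100%. At 0.01 µM the group means ran from 147% for Ccl7 to 817% for Cxcl2, and at 10 µM they were at most 20.3%.

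Over the 18 libraries Tmem176a was most like S100a4 (Pearson r = 0.970), Emp2 (0.951), Lmna (0.948), Lgals3 (0.946) and Ccnd1 (0.944), and Tmem176b was most like Nedd4 (0.973), Cd63-ps (0.967), Amotl1 (0.966), F11r (0.964) and Spp1 (0.964). Each of these 10 genes had its highest mean in P13.9 cells. Within the 12 activated libraries S100a4 was again closest to Tmem176a (0.963), while the gene closest to Tmem176b was S100a8 (0.964), a neutrophil gene that averaged 0.370 units in P13.9 and 483 in naive cells. Tmem176b was the 144th gene most like Tmem176a among 3197 genes, at r = 0.758. Rora and Stat3 correlated at 0.847, and the closest genes to Stat3 were Ablim1 (0.917), Srsf10 (0.912), Cyld (0.911), Rpl22 (0.905) and Txnip (0.905). Tacc1 (0.922), Pde4b (0.917) and 0610030E20Rik (0.909) were the other close genes to Rora. Zc3hav1 (0.918), Zmynd8 (0.894), Nom1 (0.890), Rbm27 (0.881) and Azin1 (0.876) were closest to Ahr, whose values rest on 9 reads in all. These correlations share libraries, depth and P13.9 share and are descriptions.

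Of 10 tested genes beside the Tmem176 pair on chromosome 6, among them 8 Gimap genes, which encode GTPases of lymphocytes, 1 was higher in 10 over 0.01 µM and none lower, Gimap7 at 1.70 ± 0.39 (adjusted p = 0.0139, limma), a share close to the 8.15% of all genes. edgeR called 5 higher and none lower. Gimap7 and Gimap6 had no read in P13.9 cells. Among marker lists in the same contrast, 4 of 5 fibroblast genes fell, 1 of 7 myeloid and dendritic genes fell (Lyz2, -1.37 ± 0.35, adjusted p = 0.0243, limma) and 1 of 8 T cell genes rose (Lck, a kinase of the T cell receptor, 1.28 ± 0.19, adjusted p = 0.000609). None of 2 innate lymphoid and gamma-delta genes and not the single B cell gene tested, Ighm, was called by limma, and no CD8 gene passed the filter. By edgeR, 5 of the 8 T cell genes and Ighm were called higher, and the fibroblast and myeloid counts were the same as by limma.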

How the data were processed

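Each value in the deposited table is a normalized signal, which the authors obtained by scaling the reads of a gene with 1 factor for the library (per the file headers). FastQC 0.11.8, STAR 2.6.1d, HTSeq 0.9.1, DESeq2 and the mm10 build appear in the submitters' processing notes, and neither the annotation nor the strand setting is given there. Whole reads were recovered from the steps of the values (284543 of 284544 within 0.001 reads). The table has 15808 features, and 111 without a name were left out.

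The members and the 12 gene lists were chosen with earlier results of these data known. limma 3.58.1 in R 4.3.3 (lmFit, eBayes with trend, log2(value + 1), values of at least 5 in at least 3 libraries) was the test, in a fit of the 15 T cell libraries, or of all 18 for comparisons with P13.9. Changes on this scale understate those of low genes. edgeR 4.0.16 and DESeq2 1.42.0 on recovered reads were alternatives, with other pseudocounts, filters, weights and left-out libraries. The fits were tested on simulated data, where limma called more unchanged genes against naive cells than edgeR did. Values of edgeR and DESeq2 therefore stand beside those comparisons for the members, and edgeR counts for the lists. Single genes of the lists carry limma values only.

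Named genes are the members, up to 4 genes per list with the smallest adjusted p in 10 over 0.01 µM or in the pooled middle doses over naive cells, and the 5 genes most correlated with each member among those with a mean of at least 10. Runx1 was named after its value was seen. Bases before starts come from RefSeq (GRCm38.p6), with 250 upstream bases; Ahr has no window there. Intervals are 95% and, with floors of 3 reads, cover counting error only.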

Additional observations from a re-analysis of the deposited data

How the results depend on the processing

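Between 10 and 0.01 µM, 592 genes were called by limma, against 2528 by edgeR and 2330 by DESeq2 on recovered reads, 3334 with array weights, 1914 with the 12 activated libraries alone (added after seeing the data), and 199 to 1219 with 1 library left out. The lowest of these counts was without the 0.01 µM library B, and the highest without naive 1; without another 0.01 µM library the count was 233 or 235, and without a 10 µM library 277, 302 or 387. The share of calls higher at 10 µM was 23.3% in limma, 44.5% in edgeR and 53.6% in DESeq2; the share higher in the pooled middle doses than in P13.9 was 37.4% in limma and 50.9% in edgeR. Naive and P13.9 columns carry no letters, so a replicate block was possible only among the 12 activated libraries, where it gave 1788 calls between 10 and 0.01 µM. Same-letter deviations correlated at -0.20 to 0.20 and different-letter ones at -0.25 to 0.29. With 3 libraries per group this cannot show whether a letter marks a shared mouse or culture. Moving from 3 fibroblast genes to the 74 genes with no naive read shifted the P13.9 share to 23.7%, 7.43%, 5.25% and 2.76% from 0.01 to 10 µM. For the members against naive cells, Tmem176a reversed in edgeR (0.28) and DESeq2 (0.23). It was called at -1.05 (adjusted p = 0.0398, limma) after the P13.9 share by the 74 genes, an alternative added later, was subtracted. Tmem176b, a description in this comparison, stood at 1.57 with array weights. After subtraction of the P13.9 share with the same genes kept it stood at 1.05 and 0.70. Tmem176b could not be fitted where the filter followed the subtraction. With the fibroblast share subtracted, which left no Tmem176b level in the 0.01 µM library C, Tmem176b between 10 and 0.01 µM reversed (0.065). Stat3 between 1.0 and 0.1 µM reversed with array weights (-0.0077) and without the 1.0 µM library B (-0.15), and ran from -0.15 to 0.32 with 1 library left out. Leaving out any 1 library changed no call of the tested members Tmem176a, Rora and Stat3. The causes were not tested.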

Other observations

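In the pooled 0.1 and 1.0 µM libraries against naive cells, where limma called 61.2% of all genes, 2 of 11 tested T helper 17 pathway genes rose and 6 fell by limma, and 2 rose and 2 fell by edgeR. The interleukin 12 and 23 receptor subunit gene Il12rb1 rose by 3.17 ± 0.63 log2 units (adjusted p = 0.000453, limma) and Batf, a partner of IRF4, by 2.54 ± 0.54 (adjusted p = 0.000841). Il12rb1 had 2 naive reads in all and Batf 6, so the sizes of these rises are uncertain. Nfkbiz fell by 3.79 ± 0.32 (adjusted p = 8.85e-08) and Socs3 fell by 2.04 ± 0.39 (adjusted p = 0.000392).

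Of 6 AHR-axis genes, 4 fell by limma, beside the same 61.2% of all genes, and 2 fell by edgeR. The AHR partner Arnt fell by 1.49 ± 0.37 (adjusted p = 0.00293, limma) and Hsp90aa1, a chaperone, fell by 2.32 ± 0.31 (adjusted p = 1.5e-05). Of 10 tested genes beside the Tmem176 pair, 3 rose and 3 fell by limma, where 61.2% of all genes were called, and 3 rose and 1 fell by edgeR. Gimap7 rose by 3.18 ± 0.34 (adjusted p = 1.29e-06, limma) and Gimap6 fell by 3.02 ± 0.24 (adjusted p = 4.43e-08). Gimap7 had no naive read, so the size of its rise is uncertain, and Gimap6 had 87. Myeloid markers and depth differ between these groups, and their part in these changes was not tested.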
